A study of Homo sapiens with 8 samples.

Results

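The 10 genes described here build and equip the intestinal microvillus: VIL1 and ESPN of the actin core, MYO1A and EZR that tie the core to the membrane, CDHR2, CDHR5 and USH1C of the adhesion links between microvilli, and ALPI, DPP4 and ANPEP, enzymes of the brush border membrane. They were taken as a list of known microvillus and brush border genes, found by Ensembl identifier among 57736 genes in each file, and all 10 passed the filter on low values that left 22100 genes to test. RNA was sequenced in 8 libraries of LS174T, an established human colon adenocarcinoma line, in derivatives that carry the Tet repressor and a doxycycline-inducible short hairpin RNA. One derivative targets ASCL2, which encodes a basic helix-loop-helix factor active in intestinal stem cells, and the other the long non-coding RNA WiNTRLINC1. In each, 2 libraries came from cells grown 3 days with doxycycline at 1 ug/ml and 2 from cells grown 3 days without it. The WiNTRLINC1 derivative was obtained by screening cell clones, the ASCL2 derivative had been made before, and no library came from doxycycline-treated cells without a hairpin, so the drug and the hairpin cannot be told apart. Nothing in the labels states that the libraries of a group are separate cultures, and the p-values therefore describe only their spread, which may be technical.

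Lines are named here by the sample titles, although the genotype label of every sample names the other target. ASCL2 itself was 2855 and 3373 scaled counts in the untreated ASCL2 line and 532 and 586 with doxycycline, and 2540 and 2034 against 805 and 697 in the WiNTRLINC1 line. It was lower with doxycycline in both lines (limma adjusted p = 3.93e-09 and 3.46e-07), so it does not settle the labels. Values are gene read counts that had been scaled per library and rounded before deposit, called scaled counts here, and library totals lay between 21524463 and 22941231. Of the 8 epithelial markers all were detected (summed 116569 to 215207 per library), among them the keratin KRT8 and the adhesion molecule EPCAM. Within that list the goblet cell mucin MUC2 was 849 and 807 in untreated cells of the ASCL2 line and 14633 and 14085 in those of the WiNTRLINC1 line, and the keratin KRT18 was 38977 and 36188 untreated and 8197 and 7734 treated in the latter. The part of these shifts in the results below was not tested. The markers of fibroblasts, immune cells and endothelium summed to 34 to 266, 36 to 80 and 13 to 33 (3 of 6, 3 of 5 and 1 of 4 passed the filter), with none at 0 in all libraries and 1 of the 4 endothelial markers unmatched. The fibroblast sum was highest in untreated cells of the ASCL2 line (256 and 266), lower in their treated cells (118 and 130) and 34 to 64 in the WiNTRLINC1 line. Most of this was the collagen gene COL1A1, at 200 and 222 untreated and 60 and 99 treated in the ASCL2 line and 11 to 20 in the WiNTRLINC1 line. COL3A1 had a mean of 33.5 in both groups of the ASCL2 line, and LUM was higher in the WiNTRLINC1 line (means 11.5 and 8.5 against 0.5 and 3). The part of this sum in the results below was not tested. In bulk RNA, fewer cells expressing a gene and less RNA per cell cannot be told apart.

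A microvillus is a finger of membrane around parallel actin filaments. Villin and espin bundle the filaments, ezrin and class I myosins link them to the membrane, and protocadherins at the tips hold neighbouring microvilli together through a complex with the scaffold harmonin, the product of USH1C. The finished border of an absorptive enterocyte carries digestive enzymes anchored in the membrane, and intestinal alkaline phosphatase, dipeptidyl peptidase 4 and aminopeptidase N are classic markers of it.

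A gene counts as called below where limma, a linear model with shared variance estimates fitted to all libraries, gave a p under 0.05 after adjustment over all genes tested. Counted over the list, 5 of the 10 genes were higher (ALPI, DPP4, ANPEP, USH1C and EZR) and 3 lower (VIL1, ESPN and CDHR5) with doxycycline in ASCL2-line cells, where 26.6% of all genes tested were called (13.9% higher and 12.7% lower). For WiNTRLINC1 cells the list had 3 higher (DPP4, ANPEP and ESPN) and 1 lower (CDHR5), where 18.6% of all genes were called (9.54% higher and 9.03% lower). The median log2 fold changes of the 10 genes were 0.13 and -0.23. Without the first untreated WiNTRLINC1 library 2 of these 4 calls were left. DPP4 and ANPEP were called higher and CDHR5 lower in both lines, while ESPN was called in opposite directions. The ESPN call of the WiNTRLINC1 line rests on values of 12 to 25 scaled counts. The 2 comparisons use different control libraries. The difference of the responses was called for 4 of the 10 genes, ESPN, USH1C, ALPI and DPP4, with 1 higher and 3 lower, where 15% of all genes were called (7.39% higher and 7.6% lower). Between the untreated lines 7 of 10 differed, 2 higher (DPP4 and EZR) and 5 lower (VIL1, ESPN, CDHR5, ALPI and ANPEP) in the WiNTRLINC1 line, where 55.2% of all genes were called (25.7% higher and 29.5% lower), so that count is not far from the background. The ALPI call between the untreated lines rests on 9 and 7 scaled counts in the WiNTRLINC1 line. These are under the filter of 10, which ALPI passed through the ASCL2 line. Comparisons that involve an untreated group share its libraries.

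**Figure D1:**
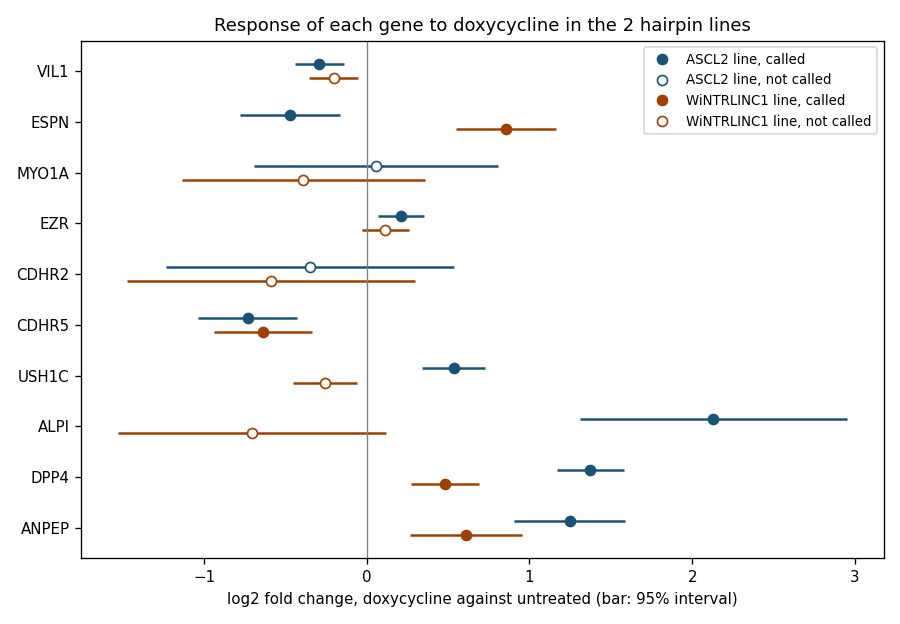
Log2 fold change of doxycycline against untreated cells for each gene in the ASCL2 line (blue) and the WiNTRLINC1 line (brown), with bars for the 95% interval and filled points for an adjusted p under 0.05. DPP4 and ANPEP lay to the right of 0 in both lines, CDHR5 to the left in both, and ALPI at 2.13 and -0.71.

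The levels of the 10 genes spanned a wide range. Per kilobase of the principal transcript and averaged over all libraries, EZR stood highest at 3400 scaled counts per kb, followed by VIL1 at 786, USH1C at 466, ESPN at 271, DPP4 at 249, CDHR5 at 155, ANPEP at 56.7, ALPI at 14.1, MYO1A at 8.34 and CDHR2 at 3.66. MYO1A and CDHR2 were near the filter everywhere, at 20 to 50 and 10 to 22 scaled counts. This order pools groups that differ, and several neighbours in it changed places between groups: per kb, ESPN was 625 in the untreated ASCL2 line, above USH1C at 426 and DPP4 at 116, and 2.64 in the untreated WiNTRLINC1 line, below both. CDHR5 was 328 per kb in untreated ASCL2-line cells, above DPP4. The place of ALPI came from the treated ASCL2 libraries (42.2 per kb), and in WiNTRLINC1 cells it was 3.14 untreated and 1.76 treated, below MYO1A (11.3 and 8.47) and CDHR2 (3.77 and 2.44). Beyond these genes, sucrase-isomaltase SI (1 to 14 scaled counts) and lactase LCT (2 to 11), digestive enzymes of the mature enterocyte, were near the limit of detection in all 8 libraries.

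**Figure D2:**
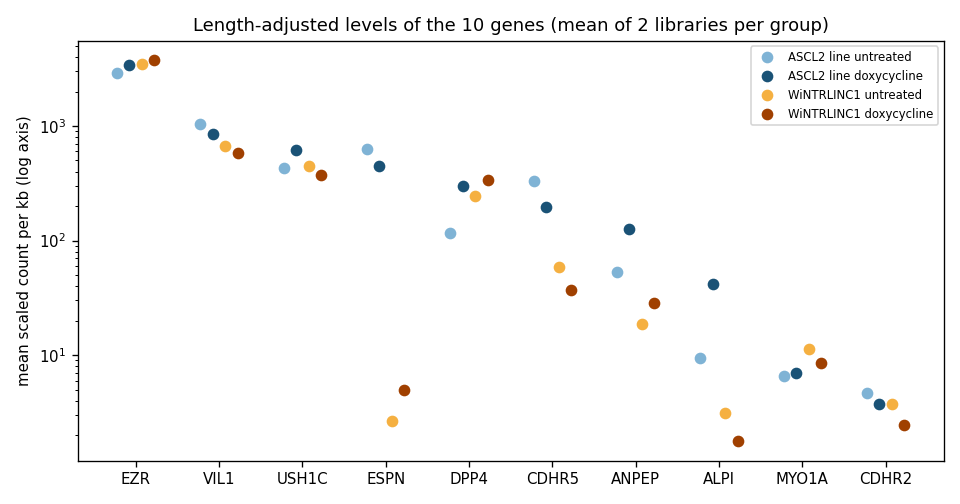
Mean scaled count per kilobase of principal transcript (log axis) for each gene, ordered by its mean over all libraries, with a point per group (mean of 2 libraries). EZR was the highest in every group, and ESPN ran from 625 in the untreated ASCL2 line to 2.64 in the untreated WiNTRLINC1 line.

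ALPI, DPP4 and ANPEP rose in the ASCL2 line, while 2 of the 11 brush border enzymes tested, GGT1 and TREH, fell there. The call for TREH was lost under 5 of 17 alternative settings of the fit. For the windows before their starts, 250 bases upstream of each transcript start given by RefSeq (GRCh38.p14, another build than those the submitters name), sequences are shown for the 3 enzyme genes that rose, read 5′ to 3′ on the gene's strand. Capitals mark matches, on either strand, to any of 5 motifs: CAGCTG, the E-box of ASCL-type factors, CAAAGTCC for HNF4, GTTAAT for HNF1, TTTATG for CDX factors and ATCAAAG for TCF factors. RefSeq gives 2 starts for ANPEP.
DPP4, chr2:162074216-162074465, minus strand: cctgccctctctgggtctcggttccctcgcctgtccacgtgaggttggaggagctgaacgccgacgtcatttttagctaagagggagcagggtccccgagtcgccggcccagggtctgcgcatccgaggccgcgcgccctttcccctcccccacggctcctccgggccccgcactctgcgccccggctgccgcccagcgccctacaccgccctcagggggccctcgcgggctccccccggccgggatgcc
ALPI, chr2:232455903-232456152, plus strand: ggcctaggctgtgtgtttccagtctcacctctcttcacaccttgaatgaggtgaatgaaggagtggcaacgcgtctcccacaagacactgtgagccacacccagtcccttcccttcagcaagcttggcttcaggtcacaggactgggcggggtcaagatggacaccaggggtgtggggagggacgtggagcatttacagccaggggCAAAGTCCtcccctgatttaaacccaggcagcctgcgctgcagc
ANPEP, start nearer the coding region, chr15:89806629-89806878, minus strand: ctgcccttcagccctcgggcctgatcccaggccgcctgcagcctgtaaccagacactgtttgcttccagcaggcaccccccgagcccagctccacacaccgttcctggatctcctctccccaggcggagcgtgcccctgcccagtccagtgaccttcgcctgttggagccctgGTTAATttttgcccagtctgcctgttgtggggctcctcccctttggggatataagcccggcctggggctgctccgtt
ANPEP, upstream start, chr15:89814853-89815102, minus strand: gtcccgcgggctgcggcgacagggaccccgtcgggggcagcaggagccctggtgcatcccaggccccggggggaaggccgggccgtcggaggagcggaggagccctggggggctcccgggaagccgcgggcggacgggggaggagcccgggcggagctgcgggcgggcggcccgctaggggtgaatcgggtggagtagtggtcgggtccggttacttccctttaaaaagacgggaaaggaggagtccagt
The HNF4 motif lay 44 bases before the ALPI start, counted from its first base, and the HNF1 motif 77 bases before the ANPEP start nearer the coding region. The DPP4 and the upstream ANPEP windows held no match to any of the 5 motifs and had a GC content of 73.6% and 74.0%, against a median of 58.0% over all 35116 windows. In those windows, the HNF4 motif was found in 1.02%, the HNF1 motif in 6.23%, the E-box in 13.99%, the CDX motif in 9.64% and the TCF motif in 2.26%. Of the 11 windows of the 7 genes with an entry, the E-box was found in 1, before CDHR2, together with the HNF1 motif, and the HNF4 motif was also found before MYO1A. VIL1, ESPN and CDHR5 had no entry.

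DPP4, a serine peptidase that removes dipeptides from peptide hormones and chemokines, was 416 and 487 scaled counts in the untreated ASCL2 line and 1172 and 1165 with doxycycline. The WiNTRLINC1 line held 912 and 983 before and 1278 and 1365 after treatment. Treated libraries lay above untreated ones in both lines without overlap. DPP4 rose 2.59-fold with doxycycline in the ASCL2 line, a log2 fold change of 1.37 ± 0.097 (SE; limma, Benjamini-Hochberg adjusted p = 1.71e-07). WiNTRLINC1 cells showed a 1.39-fold rise (0.48 ± 0.097, limma adjusted p = 0.00285). Without the mean-variance trend of limma the latter missed the threshold (adjusted p = 0.0561). The response of the WiNTRLINC1 line was smaller, with a difference of -0.89 ± 0.138 on the log2 scale (limma interaction term, adjusted p = 0.000404), and its untreated cells already held 2.10 times the DPP4 of untreated ASCL2-line cells (limma adjusted p = 2.91e-07).

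ANPEP, a zinc aminopeptidase that trims peptides at the cell surface, was 186 and 205 scaled counts untreated and 455 and 475 treated in the ASCL2 line, and 68 and 69 untreated against 115 and 96 treated in the WiNTRLINC1 line. It too was higher in every treated library than in the untreated ones of its line. ANPEP rose 2.37-fold in the ASCL2 line (1.25 ± 0.160, limma adjusted p = 4.48e-05) and 1.53-fold in WiNTRLINC1 cells (0.61 ± 0.160, limma adjusted p = 0.0146). The latter call was lost without either untreated library or without the first treated library of that line (limma adjusted p = 0.0617, 0.0509 and 0.12), and when the line was fitted alone (0.0921). The difference of the responses, -0.64 with a 95% interval from -1.12 to -0.15, did not pass after adjustment (limma adjusted p = 0.0741). Unlike DPP4, ANPEP was lower in the untreated WiNTRLINC1 line than in the untreated ASCL2 line, by 2.82-fold (limma adjusted p = 1.56e-06).

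ALPI, the intestinal alkaline phosphatase, was 20 and 28 scaled counts in untreated and 98 and 117 in treated libraries of the ASCL2 line. Libraries of the WiNTRLINC1 line held 9 and 7 before treatment and 5 and 4 after it. Only the treated libraries of the ASCL2 line lay above 28. The rise there was 4.38-fold (2.13 ± 0.385, limma adjusted p = 0.000832), and the log2 fold change of -0.71 ± 0.385 in the WiNTRLINC1 line did not pass (limma adjusted p = 0.239). The responses differed by -2.84 ± 0.544 (limma adjusted p = 0.00227). All 4 WiNTRLINC1 values were below the filter of 10, which ALPI passed through the ASCL2 line. Its response there, this difference and its lower call between the untreated lines thus rest on values under the filter. With a pseudocount of 10 in place of 1 the difference of the responses was -2.10. Other alkaline phosphatases can share reads with ALPI because their sequences are close. The placental genes ALPP and ALPG were 4 to 18 and 1 to 7 scaled counts, and ALPP went from 18 and 14 in untreated to 9 and 13 in treated libraries of the ASCL2 line, where ALPI went up.

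**Figure D3:**
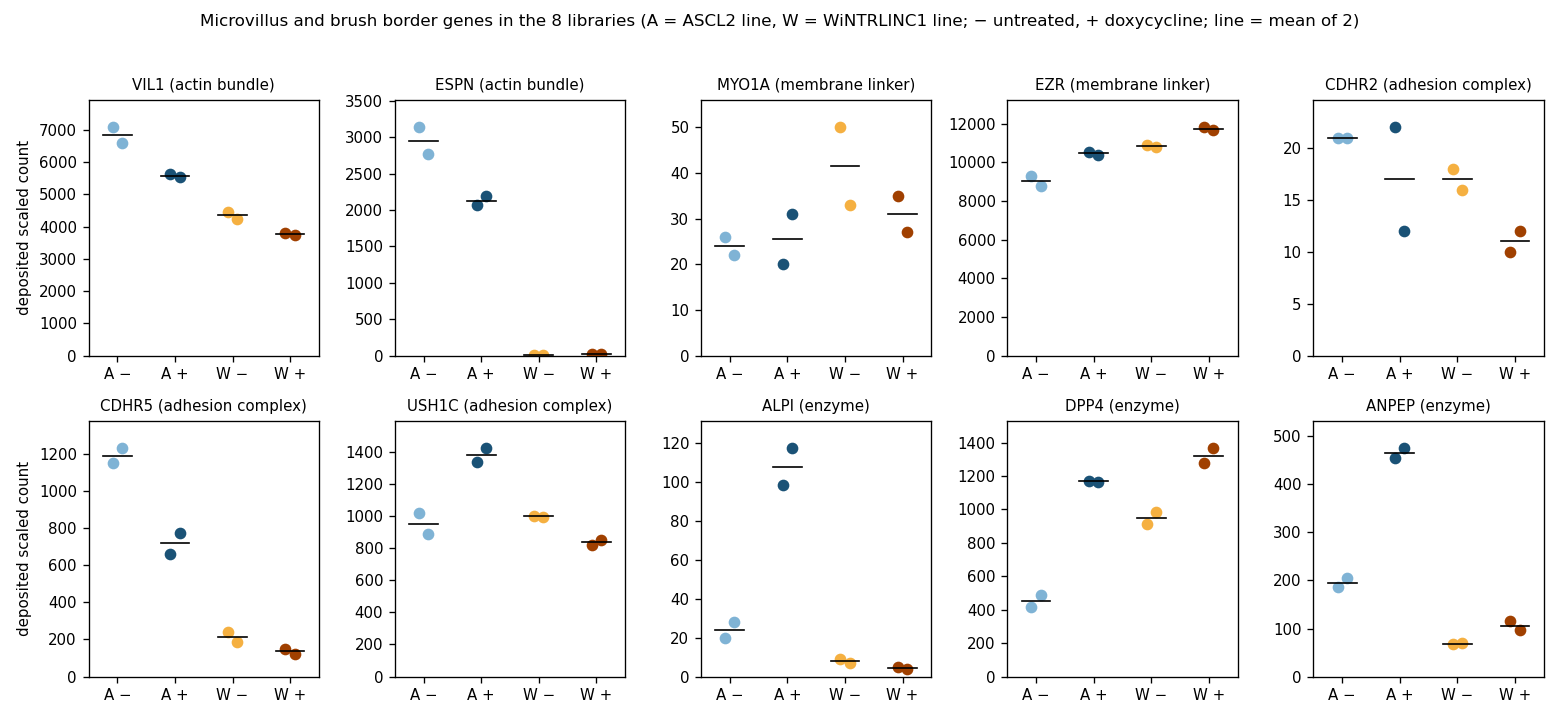
Deposited scaled counts of the 10 genes in each library (points) with the mean of the 2 libraries of a group (line), on linear axes from 0, one panel per gene. ALPI, DPP4 and ANPEP were higher with doxycycline in the ASCL2 line, CDHR5 was lower with doxycycline in both lines, and ESPN was near 0 in all 4 WiNTRLINC1 libraries.

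The adhesion genes did not move together. CDHR5, a protocadherin of the microvillus tip, was 1153 and 1232 scaled counts in untreated and 661 and 777 in treated libraries of the ASCL2 line, and 239 and 186 against 147 and 124 in the WiNTRLINC1 line. Treated libraries were below untreated ones in both lines. It fell 1.66-fold in the ASCL2 line (-0.73 ± 0.141, limma adjusted p = 0.00136) and 1.56-fold in WiNTRLINC1 cells (-0.64 ± 0.141, limma adjusted p = 0.00516), and the interval of the difference ran from -0.33 to 0.52. The fall in WiNTRLINC1 cells missed the threshold without their first untreated or second treated library (limma adjusted p = 0.0763 and 0.0672), and likewise with no filter, without the trend or with their 4 libraries fitted alone (0.065, 0.0766 and 0.0744). Untreated WiNTRLINC1 cells held 5.63-fold less CDHR5 than untreated ASCL2-line cells (limma adjusted p = 1.97e-09), a gap larger than either response.

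USH1C, the scaffold that binds the tails of the protocadherins, rose in the ASCL2 line, where CDHR5 fell. It was 1020 and 887 scaled counts untreated and 1334 and 1422 treated there, a 1.45-fold rise (0.53 ± 0.091, limma adjusted p = 0.000562). WiNTRLINC1 cells held 1002 and 995 untreated and 820 and 851 treated, so treated libraries were lower without overlap. The log2 fold change of -0.26 ± 0.091 did not pass (limma adjusted p = 0.0659), though it did with a mean of at least 50 required (0.0472). The responses differed by -0.79 ± 0.129 (limma adjusted p = 0.000665). CDHR2, the partner protocadherin, was 10 to 22 scaled counts in all libraries, and its changes were not detectable at this depth, with 95% intervals from -1.23 to 0.54 in the ASCL2 line and from -1.47 to 0.30 in the WiNTRLINC1 line. GPRIN1, at 35 to 174 scaled counts, overlaps CDHR2 by 173 bases on the opposite strand.

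Of the other genes of the tip complex, the scaffold ANKS4B, which joins USH1C to the motor MYO7B, was 468 and 512 scaled counts in untreated and 193 and 215 in treated WiNTRLINC1 cells. It fell by 1.26 ± 0.132 on the log2 scale there (limma adjusted p = 9.39e-06), and its response was lower than that in the ASCL2 line by 1.73 (-1.73 ± 0.186, limma adjusted p = 1.88e-05). Of the 6 genes of the complex, CDHR5, USH1C and CDHR2 included, the ASCL2 line had 2 higher (USH1C and ANKS4B) and 3 lower (CDHR5, MYO7B and CALML4) and the WiNTRLINC1 line 3 lower (CDHR5, ANKS4B and CALML4), beside 26.6% and 18.6% of all genes called in these comparisons. With each library left out in turn, only USH1C and CDHR5 of the former and ANKS4B of the latter held their calls throughout. Median log2 fold changes were -0.31 and -0.45 against 0.01 over all genes tested in each line.

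Among the genes of the actin core, VIL1, which bundles and severs actin, was 7079 and 6595 scaled counts untreated and 5626 and 5528 treated in the ASCL2 line. WiNTRLINC1 cells held 4467 and 4235 untreated and 3807 and 3755 treated. Each group lay apart from the others, from the untreated ASCL2 line downwards. The fall in the ASCL2 line was 1.23-fold (-0.29 ± 0.070, limma adjusted p = 0.00619). Without the first untreated library of that line, or without the trend, it did not pass (limma adjusted p = 0.0596 and 0.0701). For WiNTRLINC1 cells the log2 fold change of -0.20 ± 0.070 missed the threshold (limma adjusted p = 0.0596), though it passed with a mean of at least 50 required (0.0427). The untreated lines differed by 1.57-fold (limma adjusted p = 1.75e-06). USP37 (425 to 553 scaled counts) overlaps VIL1 by 3045 bases on the opposite strand. The genes with the profile closest to VIL1 over the 8 libraries, by root mean square difference of centred log2 values, were TM9SF1 (0.052), AGR3 (0.055) and LGALS4 (0.057), and LGALS4 encodes galectin-4, a lectin of the gut epithelium.

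ESPN showed the largest contrast of the 10 genes between the lines. This bundling protein, best known from the stereocilia of the inner ear and also present in microvilli, was 3138 and 2776 scaled counts in the untreated ASCL2 line and 2064 and 2200 with doxycycline. The WiNTRLINC1 line held 12 and 13 untreated and 25 and 22 treated. No library of the ASCL2 line was below 2064 and none of the WiNTRLINC1 line above 25. The untreated lines differed by 219-fold (log2 fold change -7.77 ± 0.144, limma adjusted p = 2.24e-14), beside a median log2 fold change of -0.04 over all genes. With a pseudocount of 10 in place of 1 it was -7.04. Within lines, ESPN was lower with doxycycline in the ASCL2 line (1.38-fold, limma adjusted p = 0.0251) and higher in the WiNTRLINC1 line (1.81-fold, limma adjusted p = 0.00064), and the responses differed by 1.33 ± 0.203 (limma adjusted p = 0.000389). Both the rise and this difference use a spread shared with the ASCL2 line, where values were far higher. The SE of the rise was 0.144 in that fit and 0.311 with the WiNTRLINC1 libraries fitted alone. The fall in the ASCL2 line rested on all 4 of its libraries, since leaving out any of them gave a limma adjusted p between 0.066 and 0.21, and the rise in the WiNTRLINC1 line missed the threshold when its 4 libraries were fitted alone (limma adjusted p = 0.137).

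Genes beside ESPN on chromosome 1 were looked at after its values were seen. In RefSeq order these are GPR153, ACOT7 and HES2 on one side and TNFRSF25, PLEKHG5 and NOL9 on the other. In the untreated WiNTRLINC1 line HES2, a bHLH repressor gene, was 6.2-fold lower than in the untreated ASCL2 line (limma adjusted p = 5.27e-08), the receptor gene GPR153 3.84-fold lower (limma adjusted p = 1.13e-08), and ACOT7 and PLEKHG5 1.58-fold and 1.83-fold lower. NOL9 was 1.73-fold higher (limma adjusted p = 4.98e-05), and the log2 fold change of TNFRSF25 was -0.05 ± 0.126 (limma adjusted p = 0.74). The difference was thus largest at ESPN and was not shared by every neighbour. TNFRSF25 overlaps ESPN by 582 bases on the opposite strand, and the use of strand in counting is not given in the sources used here, so reads of the overlap cannot be assigned. The response of TNFRSF25 differed between the lines in the direction of that of ESPN (0.83, limma adjusted p = 0.00543). That of GPR153 differed in the other direction (-0.65, limma adjusted p = 0.0243), and the difference was not called for ACOT7, HES2, PLEKHG5 and NOL9. The pseudogene ESPNP, a close copy that can share reads with ESPN, was 62 to 109 scaled counts in the ASCL2 line against 31 to 57 in the WiNTRLINC1 line.

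**Figure D4:**
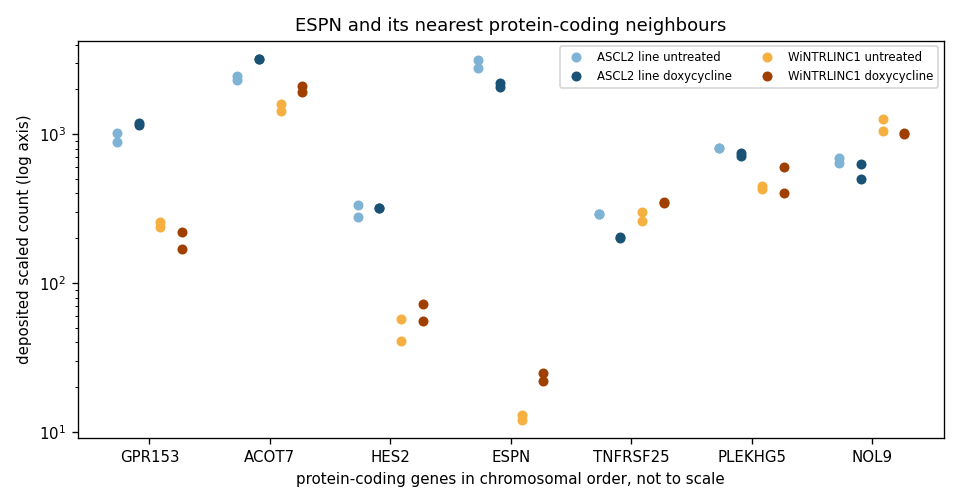
Scaled counts (log axis) of ESPN and the 3 nearest protein-coding genes on each side, in chromosomal order, with a point per library. ESPN lay between 2064 and 3138 in the ASCL2 line but between 12 and 25 in all WiNTRLINC1 libraries, while TNFRSF25 lay between 201 and 349 in all 8 libraries.

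Of the membrane linkers, EZR, the founding member of the ezrin, radixin and moesin family, had the smallest relative range of the 10. It was 9312 and 8790 scaled counts untreated and 10543 and 10398 treated in the ASCL2 line, and 10906 and 10781 against 11815 and 11668 in the WiNTRLINC1 line. Treated libraries were the higher ones in each line. The rise was 1.16-fold in the ASCL2 line (0.21 ± 0.067, limma adjusted p = 0.0297). It did not pass with values rescaled to equal totals, nor without the second untreated or either treated library of that line (limma adjusted p = 0.0708, 0.165, 0.12 and 0.0929), nor without the trend or with the line fitted alone (0.13 and 0.0708). For WiNTRLINC1 cells the log2 fold change of 0.11 ± 0.067 did not pass (limma adjusted p = 0.276). The closest profiles were those of UQCRC2, SEPTIN8 and BTN2A1 (root mean square difference 0.029, 0.034 and 0.036). MYO1A, the brush border myosin I, was 26, 22, 20 and 31 scaled counts in the ASCL2 line and 50, 33, 35 and 27 in the WiNTRLINC1 line, untreated libraries first. Treated and untreated libraries overlapped in both lines, and MYO1A was called in no comparison.

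Several partners of ezrin had larger fold changes than ezrin. NHERF1, the PDZ scaffold that links ezrin to apical transporters, was 4567 and 4039 scaled counts in untreated and 1981 and 2119 in treated WiNTRLINC1 cells, a 2.10-fold fall (-1.07 ± 0.083, limma adjusted p = 6.01e-07). The ASCL2 line held 7359 and 6753 untreated and 8018 and 8786 treated, a log2 fold change of 0.25 ± 0.083 (limma adjusted p = 0.036). That call was lost under 7 of 17 alternatives, among them without the second untreated or second treated library of the line. The responses differed by -1.32 ± 0.117 (limma adjusted p = 4.11e-06). The class I myosin MYO1D was 1035 and 1063 untreated and 334 and 379 treated in the WiNTRLINC1 line, a 2.94-fold fall (limma adjusted p = 2.4e-08), with a log2 fold change of -0.03 in the ASCL2 line and a difference of -1.52 ± 0.120 (limma adjusted p = 1.39e-06). Moesin, MSN, the relative of ezrin, was 1566 and 1578 untreated and 3047 and 2937 treated in the ASCL2 line, a 1.90-fold rise (limma adjusted p = 4.13e-07), and its response in the WiNTRLINC1 line was lower by 1.05 (-1.05 ± 0.102, limma adjusted p = 8.2e-06). Among 13 linkers and ezrin partners, EZR and MYO1A included, 3 were called higher and 2 lower for the ASCL2 line, and 3 each way for the WiNTRLINC1 line, beside 26.6% and 18.6% of all genes called. Only MSN of the former calls, and MYO1D and NHERF1 of the latter, held under all alternative settings of the fit.

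The wider brush border list held 53 further genes of the actin core, linkers, adhesion complex, apical trafficking, enzymes and transporters, of which 46 were tested. With doxycycline 11 were higher, 10 lower and 25 not called for the ASCL2 line (45.7% called), and 8 higher, 13 lower and 25 not called for the WiNTRLINC1 line (also 45.7%), beside 26.6% and 18.6% of all genes. The medians were -0.03 and -0.11. The share over all genes includes genes near the filter, and genes of similar level were not compared. The 21 calls of the ASCL2 line became 9 without its second treated library, 13 with no filter and 11 without the trend. Those of the WiNTRLINC1 line became 12, 12 and 10 without its first untreated, first treated and second treated library, and 9 without the trend. Of these calls, 9 of 21 in each line held with every library left out in turn.

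Among the other enzymes, MME, the neutral endopeptidase neprilysin, was 321 and 348 scaled counts in untreated and 112 and 116 in treated WiNTRLINC1 cells, a 2.92-fold fall (limma adjusted p = 3.91e-06) where DPP4 and ANPEP rose. GGT1, which cleaves glutathione at the cell surface, was 220 and 248 untreated and 120 and 132 treated in the ASCL2 line, a 1.85-fold fall (limma adjusted p = 0.00013). Of the 15 enzymes listed, the 3 described above included, 11 were tested. With the ASCL2 hairpin induced 3 were higher, namely ALPI, DPP4 and ANPEP, and 2 lower. With the WiNTRLINC1 hairpin 2 were higher, DPP4 and ANPEP, and 3 lower. Of these 3, MME held its call under all alternatives, while TREH and ENPEP lost theirs under 5 and 12. Over all genes 26.6% and 18.6% were called.

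Of the transporters and trafficking genes, SLC9A3, the apical sodium-proton exchanger, was 14707 and 16445 untreated and 21903 and 21852 treated in the ASCL2 line, and 14761 and 12816 against 10303 and 9013 in the WiNTRLINC1 line. It rose 1.41-fold in the former (limma adjusted p = 0.000806) and was 1.43-fold lower with doxycycline in the latter (limma adjusted p = 0.000814), and the responses differed by -1.01 ± 0.125 (limma adjusted p = 6.7e-05). STX3, the syntaxin of apical membrane delivery, showed the same pair of directions, with a 1.77-fold rise (limma adjusted p = 8.33e-07) and a 1.27-fold fall (limma adjusted p = 0.0023) and a difference of -1.17 ± 0.098 (limma adjusted p = 2.15e-06). MYH14, the non-muscle myosin heavy chain IIC, fell in both lines, 1.43-fold and 1.37-fold (limma adjusted p = 0.000512 and 0.00171). Without the trend SLC9A3 missed the threshold in both lines (limma adjusted p = 0.0503 and 0.0617), as did STX3 (0.0522) and MYH14 (0.0577) in the WiNTRLINC1 line. In the actin core, FSCN1, a bundler of filopodia, rose 1.63-fold in the ASCL2 line (limma adjusted p = 1.46e-05), and EPS8, a capping and bundling protein of microvilli, 1.46-fold (limma adjusted p = 0.000157). EPS8L3 fell there, from 1566 and 1359 scaled counts untreated to 997 and 1042 treated. Of the 12 genes of the actin core, VIL1 and ESPN included, 4 were higher and 3 lower in the ASCL2 line. The WiNTRLINC1 line had 5 higher (ESPN, COBL, VILL, PLS1 and EPS8) and 1 lower (MISP), beside 26.6% and 18.6% of all genes called. Only FSCN1 and EPS8 of the ASCL2-line calls, and COBL of the WiNTRLINC1 calls, held under all alternative settings of the fit. In the WiNTRLINC1 line MISP and EPS8 lost theirs under 11 and 8.

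Between the untreated lines the further genes of the border differed in both directions, with 12 higher and 18 lower in the WiNTRLINC1 line among the 46 (65.2% called). Over all genes 55.2% were called, so this share is not far from the background. SLC6A19, a transporter of neutral amino acids, was 5 and 20 scaled counts in the untreated ASCL2 line and 309 and 334 in the untreated WiNTRLINC1 line (28.7-fold, limma adjusted p = 2.26e-07). Its log2 fold change of 4.84 became 3.94 and 5.75 without the first and the second untreated ASCL2 library. The scaffold PDZK1, at 14 and 10 against 131 and 126, and the villin-like gene VILL, at 56 and 57 against 375 and 363, were also higher there (limma adjusted p = 2.77e-07 and 2.9e-09). ACE, the angiotensin-converting enzyme, was 119 and 150 against 9 and 13, and SLC3A1, a subunit of the cystine transporter, 192 and 241 against 38 and 28, both lower there (limma adjusted p = 1.67e-07 and 4.91e-07). With a pseudocount of 10 the log2 fold change was 3.96 for SLC6A19, 2.66 for PDZK1 (3.33 with 1) and -2.78 for ACE (-3.51 with 1). The low ESPN, CDHR5, ALPI and ANPEP of the WiNTRLINC1 line thus stood beside higher values of other genes of the border. ALPI was under the filter there.

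**Figure D5:**
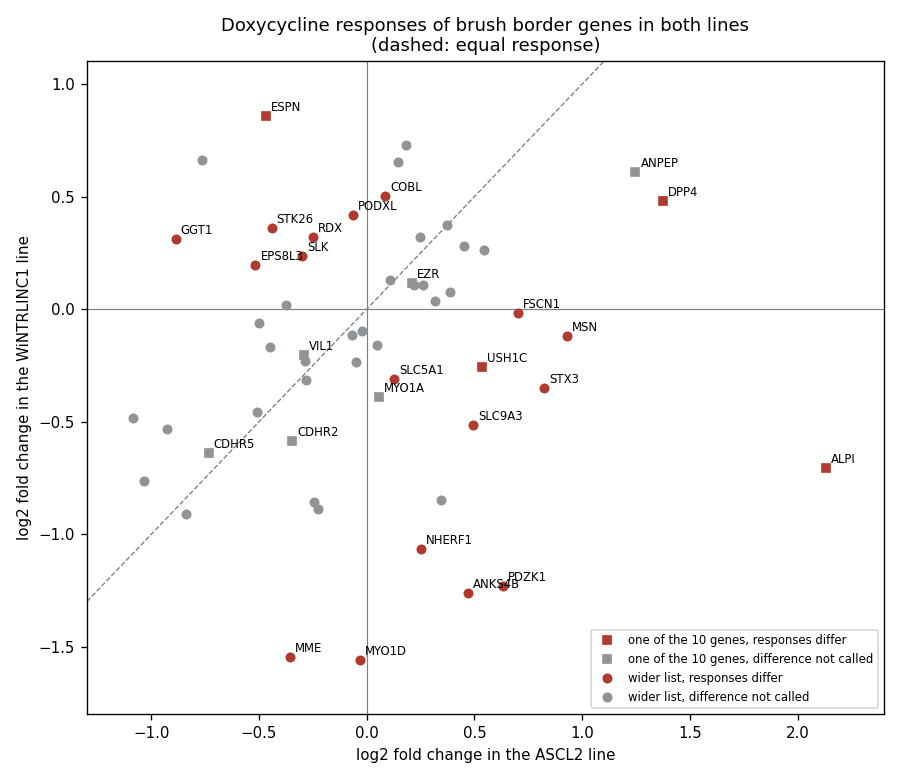
Log2 fold change in the ASCL2 line (x axis) against that in the WiNTRLINC1 line (y axis) for the 56 tested genes of the brush border lists, squares for the 10 genes and circles for the others, red where the difference of the responses passed an adjusted p of 0.05. ALPI, STX3, SLC9A3, ANKS4B and NHERF1 lay at the lower right, and ESPN and GGT1 at the upper left.

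The transcription factors that act on enterocyte genes were read beside these results. CDX2 was 4409 and 3787 scaled counts untreated and 2241 and 2612 treated in the ASCL2 line, a 1.69-fold fall (limma adjusted p = 2.22e-05). HNF4G was 583 and 672 untreated and 836 and 789 treated there, a 1.30-fold rise (limma adjusted p = 0.0253). That call was lost under 5 of 17 alternatives, among them without the first untreated or either treated library. CDX1 fell 1.43-fold there (limma adjusted p = 0.000269), while the log2 fold change of HNF4A was -0.06 in the ASCL2 line against 0.22 in the WiNTRLINC1 line with no call. ALPI, DPP4 and ANPEP were thus highest in the ASCL2 line in the libraries with the lowest CDX1 and CDX2. CDX2 was also called lower in the WiNTRLINC1 line (4412 and 4484 untreated, 3415 and 3554 treated), a call lost under 6 of 17 alternatives. CDX1 was 3007 and 2968 untreated and 3409 and 3611 treated there, with no call. DPP4 and ANPEP were called higher in that line and ALPI was not. The part of these factors was not tested. For DPP4, the closest profiles over the 8 libraries were those of NDRG1, HSPG2 and KRT80 (root mean square difference 0.123, 0.133 and 0.173).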

How the data were processed

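The authors deposited one whole number per gene and library, used here as a score: a read count scaled by library and then rounded, as gaps and pile-ups among low whole numbers show for 7 of the 8 libraries. Depth before scaling is not known here, and the nearly equal totals are no measure of it. The submitters' processing notes list cutadapt, TopHat2 2.0.9, Cufflinks, DESeq and the builds hg19, GRCh37 and mm9, with no role for each. How reads were counted, and whether by strand, is not stated in those notes. A symbol was found for 39501 identifiers, and those without one carried 2.34% of the sum. Transcript lengths were those of GENCODE 29.

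Testing used limma 3.58.1 (R 4.3.3) on log2(value + 1) for the 22100 genes that reached 10 in 2 libraries or more. One fit with trended variances took in the 4 groups, with 4 residual degrees of freedom and 10.5 from the prior, and no covariates. P-values were adjusted by Benjamini-Hochberg over all these genes and called under 0.05, and the procedure was tested on simulated data. The log2(value + 1) scale understates fold changes of low genes. Other pseudocounts, filters, scalings and fits, and leaving out each library, were tried. The genes, lists and tests were chosen with earlier results of these data known. Named genes are the 10, ASCL2, up to 6 called genes per list and comparison by adjusted p, the alkaline phosphatase paralogs, and the 3 genes with a mean of at least 100 closest in profile to VIL1, EZR and DPP4. SI, LCT, HNF4A, ESPNP and the neighbours of ESPN were named after their values were seen.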

Additional observations from a re-analysis of the deposited data

Results flagged for a closer look

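For 23 genes of the lists described, the responses to doxycycline differed between the lines by the interaction term of limma (Benjamini-Hochberg adjusted p from 1.39e-06 to 0.0442). Values are the log2 response in the WiNTRLINC1 line minus that in the ASCL2 line. Of the 10 microvillus genes, ESPN stood at 1.33, USH1C at -0.79, ALPI at -2.84 and DPP4 at -0.89. The value for ALPI rests on WiNTRLINC1 values of 4 to 9, under the filter of 10 that it passed through the ASCL2 line. That for ESPN rests on WiNTRLINC1 values of 12 to 25, near the filter, and on a spread shared with the ASCL2 line. Among trafficking genes, transporters and enzymes, STX3 stood at -1.17, SLC9A3 at -1.01, SLC5A1 at -0.44, MME at -1.19 and GGT1 at 1.2. In the actin core FSCN1 stood at -0.72, EPS8L3 at 0.71 and COBL at 0.42. Of the linkers and scaffolds, ANKS4B stood at -1.73, MYO1D at -1.52, NHERF1 at -1.32, MSN at -1.05, PDZK1 at -1.86, STK26 at 0.80, PODXL at 0.48, RDX at 0.57 and SLK at 0.53. PDZK1 was near the filter in the ASCL2 line, at 14 and 10 scaled counts untreated and 17 and 21 treated. The factors CDX1 and CDX2 stood at 0.75 and 0.40. The difference missed the threshold under 11 of the 16 alternatives for SLC5A1, 9 for CDX2, 7 for COBL, 4 for SLK, 2 for EPS8L3 and 1 each for FSCN1 and PODXL.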

How the results depend on the processing

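Of the 23 calls made for the 10 genes over the 4 comparisons, 16 kept direction and call under all alternatives that could be fitted, and ALPI, MYO1A and CDHR2 were not tested under a mean of at least 50. For the WiNTRLINC1 line 4 genes of the list were called, 2 without the mean-variance trend, 1 with the libraries of that line fitted alone and 6 with a mean of at least 50 required. With a library left out, the number called was 6 to 8 in the ASCL2 line against 2 to 5 in the WiNTRLINC1 line, and stayed at 4 for the difference and 7 for the untreated lines. Without the trend, 3410 genes of the whole table were called in the ASCL2 line, 1873 in the WiNTRLINC1 line and 1313 for the difference, against 5884, 4104 and 3314. With no filter beyond a value above 0, 2395 and 1914 were called in the latter 2, and 2713 in the WiNTRLINC1 line fitted alone. Leaving out a library gave 3662 to 5824 in the ASCL2 line against 2393 to 4126 in the WiNTRLINC1 line. Among values that had not passed the test, the sign turned without a library for MYO1A (-0.25 to 0.36) and CDHR2 (-0.76 to 0.064) in the ASCL2 line, for the difference in CDHR2 (-0.65 to 0.17) and CDHR5 (-0.086 to 0.27), and for USH1C between untreated lines (-0.031 to 0.17). Causes were not tested. Rescaled to equal totals, 2661 genes were called higher and 3293 lower in the ASCL2 line (3075 and 2809 as deposited), and 2038 and 1431 for the difference (1634 and 1680). Deviations of libraries with the same replicate number correlated at 0.30 between untreated and treated WiNTRLINC1 libraries but at -0.14 between those of the ASCL2 line, and over 0.1 in 2 of 6 pairs of groups, so the numbers were not taken as pairs. The fit with a replicate block called 8, 4, 4 and 7 of the 10 genes, as without it, and 5962, 4182, 3403 and 12261 genes in all. ENPEP and MISP in the WiNTRLINC1 line missed the threshold with the block, and their calls were lost under 12 and 11 alternatives in all.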
